A study of Homo sapiens with 2 samples.

Results

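The HEY2-positive, ventricular-like cardiomyocytes are the heart muscle cells of a stem cell preparation that held transcripts of HEY2 and IRX4 and lacked those of NR2F2. They were chosen among non-cycling cardiomyocytes by counts of unique molecular identifiers (UMIs): at least 2 for HEY2, at least 1 for IRX4, 0 for NR2F2 and at most 1 for IRX1. A cardiomyocyte had at least 20000 counts per 1000000 UMIs (CPM) in the sum of 12 contractile genes, and a non-cycling one had fewer than 10 UMIs in the sum of UBE2C, TOP2A, CDK1, AURKB and CCNB2. Of 16935 non-cycling cardiomyocytes, 4572 met the rule (27.0%, 26.3 to 27.7), and these are called HEY2 cells. The other 12363 are called other cells. The measured counts of HEY2, IRX4, NR2F2, IRX1 and the contractile and cycling genes therefore chose the cells and are given as descriptions. HEY2 (gene at chr6:125747664-125761269 on GRCh38) had 272 CPM in HEY2 cells and 110.4 CPM in the other cells, and IRX4 151 CPM in HEY2 cells and 87.8 CPM in the other cells. The 12 contractile genes summed to 41171 CPM in HEY2 cells and 45618 CPM in the other cells.

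HEY2 is a transcriptional repressor of the Hairy/enhancer-of-split family that acts downstream of Notch receptors, and in the mouse heart it marks the compact outer wall of the ventricles and holds atrial genes down there. IRX4 is an Iroquois homeobox factor whose heart expression is limited to the ventricles, while NR2F2 (COUP-TFII) is an orphan nuclear receptor that maintains atrial identity. Fetal ventricles also have an inner trabecular layer, which in the mouse is rich in the natriuretic peptide gene Nppa. Between atria and ventricles lies the atrioventricular canal, patterned by Bmp2, Tbx2 and Tbx3.

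The cells were derived from H9 human embryonic stem cells that carry the fluorescent calcium reporter gCaMP6f, a genotype that all groups share. They had been frozen at day 15 of differentiation, and after thawing they were stained with antibodies bearing DNA barcodes (hashtags) and combined into a single suspension for droplet capture. One gene expression library and its hashtag library were read out as UMIs per gene in 24038 barcodes, of which 21623 passed filters (500 or more genes, 1000 or more UMIs and a mitochondrial share of at most 25%). The labels do not say what each of the 13 hashtags marks.

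A pair of classes within the other cells served for closer comparison: 1381 IRX1 cells (at least 2 UMIs of IRX1, 0 of NR2F2) and 1235 NR2F2 cells (at least 2 UMIs of NR2F2, 0 of HEY2 and IRX4). The groups differed in depth. The median was 15996.5 UMIs per cell in HEY2 cells, 12152 in IRX1 cells, 8867 in NR2F2 cells and 10182 in all other cells. CPM values are from each group's summed UMIs. Genes counted as measured had at least 10 CPM and at least 10 UMIs on the higher side, and were called higher or lower from a ratio of 1.5. Intervals are exact 95% intervals and cover counting error only. Cells of 1 pool are not replicates, so no test was run and no p-value is given. The spread of a value is shown across the 10 hashtags (2 to 10 and 12) that had at least 30 assigned HEY2 cells and 30 assigned other cells.

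Hashtags 14 and 15 stood apart from the rest. HEY2 cells were 4.64% (3.05 to 6.73) of the non-cycling cardiomyocytes of Hashtag14 and 2.78% (1.83 to 4.05) of those of Hashtag15. The share over all 13 hashtags had a median of 31.1%, and outside Hashtag14 and Hashtag15 it ran from 15.8% in Hashtag1 to 44.5% in Hashtag10. NR2F2 cells went the other way, with 23.4% in Hashtag14, 45.9% in Hashtag15 and 0.494% to 9.27% elsewhere. The classes exclude each other by definition, and the NR2F2 shares of the hashtags were not taken again at equal depth. Median depth over the non-cycling cardiomyocytes was 7819 UMIs in Hashtag14 and 8009.5 UMIs in Hashtag15, the lowest of the 13, against 9776 to 15892 UMIs in the others. After every cell was thinned to 5000 UMIs and the rule applied again, HEY2 cells were 1.11% in Hashtag14, 1.09% in Hashtag15 and 6.84% to 13.2% in the others. The low HEY2 cell shares of these hashtags thus remained at equal depth, while their absolute sizes depended on it.

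**Figure D1:**
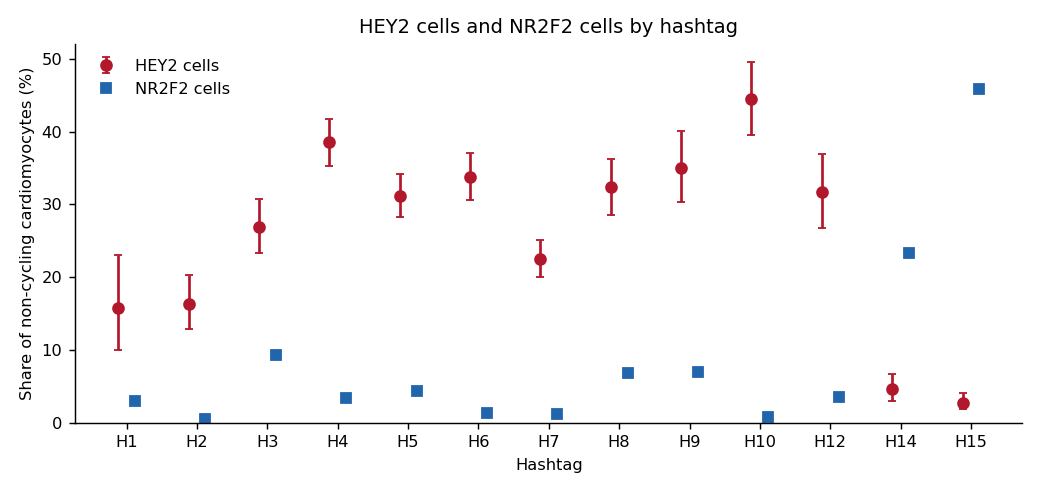
Share of non-cycling cardiomyocytes (%) that were HEY2 cells (circles, with exact 95% intervals) or NR2F2 cells (squares) in each of 13 hashtags. Hashtag14 and Hashtag15 had the lowest shares of HEY2 cells, 4.64% and 2.78%, and the highest shares of NR2F2 cells.

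Of the markers of ventricular cardiomyocytes, MYL3, GJA1 and PDGFD had no threshold in the rule. They were chosen with earlier results of these data known, so their values describe the cells and do not test the name ventricular-like. Each was above its level in the other cells by less than 1.5-fold. MYL3, the essential light chain of ventricular and slow muscle myosin, had 3758 CPM in HEY2 cells and 3089.8 CPM in the other cells, a ratio of 1.22. PDGFD, a secreted platelet-derived growth factor, had 71.7 CPM in HEY2 cells and 50.3 CPM in the other cells (1.43). GJA1, which encodes the gap junction protein connexin 43, had 40.0 CPM in HEY2 cells and 30.1 CPM in the other cells (1.33). MYL3 and PDGFD were above the other cells in 10 of 10 hashtags and GJA1 in 9.

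The myosin genes that mark mature ventricle added little. MYL2, the ventricular regulatory light chain, had 19.3 CPM in HEY2 cells and 17.3 CPM in the other cells (1.12), and its hashtag levels ran from 3.23 to 65.3 CPM (median 14.7) in HEY2 cells and from 7.84 to 33.8 CPM (median 17.0) in the other cells. MYL2 was above the other cells in 6 of 10 hashtags and below in 4. After thinning to 3000 UMIs, a MYL2 UMI was found in 4.73% of HEY2 cells and 3.82% of other cells, and in 0.0999% of 2002 cells outside the cardiomyocytes (marker sum under 5000 CPM, median 11898 UMIs), which should lack it. MYH7, the slow beta-myosin heavy chain, had 449 CPM in HEY2 cells and 391 CPM in the other cells (1.15) and was above the other cells in 5 of 10 hashtags. MYH6, the fast alpha chain, had 3134 CPM in HEY2 cells and 4066 CPM in the other cells, a ratio of 0.77. Of a list of 9 ventricular genes, 1 was called higher (MYCN) and 0 lower, where 0.192% of all measured genes were called higher and 2.57% lower, with a median ratio of 1.24, against 0.960 over all 8341 genes measured. MYCN, a growth-promoting transcription factor of the embryonic ventricle wall in the mouse, had 43.4 CPM in HEY2 cells and 28.6 CPM in the other cells (1.51). MYCN missed the threshold with depth weighting (1.35), which left 0 of the 9 called, and also without Hashtag14 or without Hashtag15. Set against all other cells, the ventricular genes thus differed by small margins.

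Set against NR2F2 cells, the same list differed widely. Of its 9 genes, 8 were called higher in HEY2 cells and 0 lower, with a median ratio of 3.50, while 5.42% of 8714 measured genes were called higher and 13.2% lower (median ratio 0.927). PDGFD had 71.7 CPM in HEY2 cells and 8.78 CPM in NR2F2 cells, 8.16-fold higher. GJA1 had 40.0 CPM in HEY2 cells and 8.29 CPM in NR2F2 cells (4.83) and MYL2 19.3 CPM in HEY2 cells and 4.06 CPM in NR2F2 cells (4.76). MYH7 had 449 CPM in HEY2 cells and 114 CPM in NR2F2 cells (3.93). The one list member not called was TBX20, a T-box factor of all chambers, with 13.4 CPM in HEY2 cells and 18.7 CPM in NR2F2 cells.

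Atrial and pacemaker genes lay on the other side. Of 8 measured atrial genes, 6 were called lower in HEY2 cells than in NR2F2 cells and 0 higher, and of 8 pacemaker genes 7 were lower and 0 higher. Over all genes measured in this comparison, 13.2% were called lower and 5.42% higher. NPPA, the atrial natriuretic peptide gene, had 119.7 CPM in HEY2 cells and 2283 CPM in NR2F2 cells, 19.1-fold lower. NR2F1, an atrial nuclear receptor related to NR2F2, had 0.879 CPM in HEY2 cells and 46.7 CPM in NR2F2 cells. SHOX2, a homeobox factor of the sinus node, had 0.352 CPM in HEY2 cells and 49.6 CPM in NR2F2 cells. After thinning, a SHOX2 UMI was present in 0.0881% of HEY2 cells, below the 0.799% of the cells outside the cardiomyocytes, and is read as background. HCN4, the main pacemaker channel, had 51.0 CPM in HEY2 cells and 148 CPM in NR2F2 cells (2.91-fold lower) and CACNA1D, the Cav1.3 calcium channel that contributes to pacemaking, 14.7 CPM in HEY2 cells and 95.1 CPM in NR2F2 cells (6.45-fold lower). The NR2F2 cells were defined in part by the absence of HEY2 and IRX4, and the ventricular list holds MYL3, GJA1 and PDGFD.

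**Figure D2:**
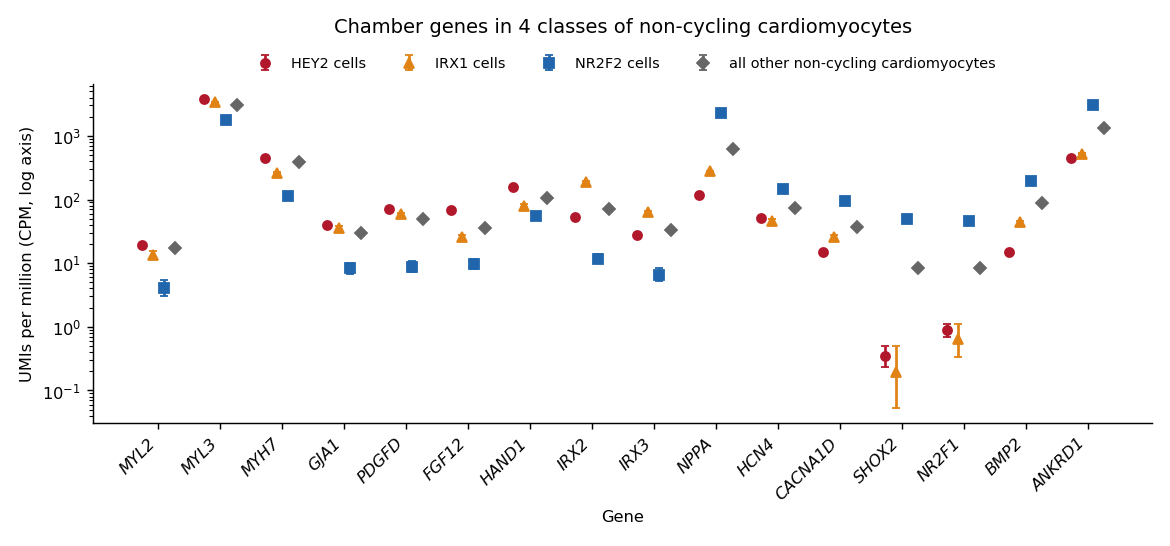
Level of 16 genes (CPM, log axis) in HEY2 cells, IRX1 cells, NR2F2 cells and all other non-cycling cardiomyocytes (which include the IRX1 and NR2F2 cells), with exact 95% Poisson intervals. MYL2, MYL3, MYH7, GJA1, PDGFD and FGF12 were lowest in NR2F2 cells, where NPPA, HCN4, CACNA1D, SHOX2, NR2F1, BMP2 and ANKRD1 were highest.

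Over all genes, the NR2F2 comparison called 472 higher and 1148 lower in HEY2 cells. With TMM scaling, which moved every log2 ratio up by 0.24, it called 1116 higher and 642 lower, so the balance of directions depends on the scaling, while the 4 ventricular and 5 atrial and pacemaker genes given above differed by more than that shift. Of the 1235 NR2F2 cells, 429 were assigned to Hashtag15 and 131 to Hashtag14, and 437 had no single hashtag. Without Hashtag14 and Hashtag15 the counts were 514 higher and 1178 lower. The part that hashtag identity plays in the contrast was not tested.

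Most of the genes called between HEY2 cells and all other non-cycling cardiomyocytes were at lower levels in HEY2 cells. Of 8341 measured genes, 214 (2.57%) were called lower in HEY2 cells and 16 (0.192%) higher. With TMM scaling, which moved every log2 ratio up by 0.11, the counts were 141 lower and 31 higher. Weighting the other cells to the depth of the HEY2 cells left 118 lower (1.43% of 8243) and 2 higher (0.0243%). Without Hashtag14 and Hashtag15 there were 195 lower and 7 higher, and without Hashtag15 alone 205 lower and 8 higher. Among the genes called lower, those that missed the threshold with depth weighting included TNNI3 (1.40-fold), CPNE5 (1.48-fold), JAG1 (1.45-fold), TBX2 (1.37-fold), COL6A2 (1.36-fold) and CCND1 (1.43-fold). When the rule was applied after thinning, CPNE5, JAG1, TBX3, FGFR2 and CCND1 missed it, and JAG1 also did so without Hashtag14 and Hashtag15.

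**Figure D3:**
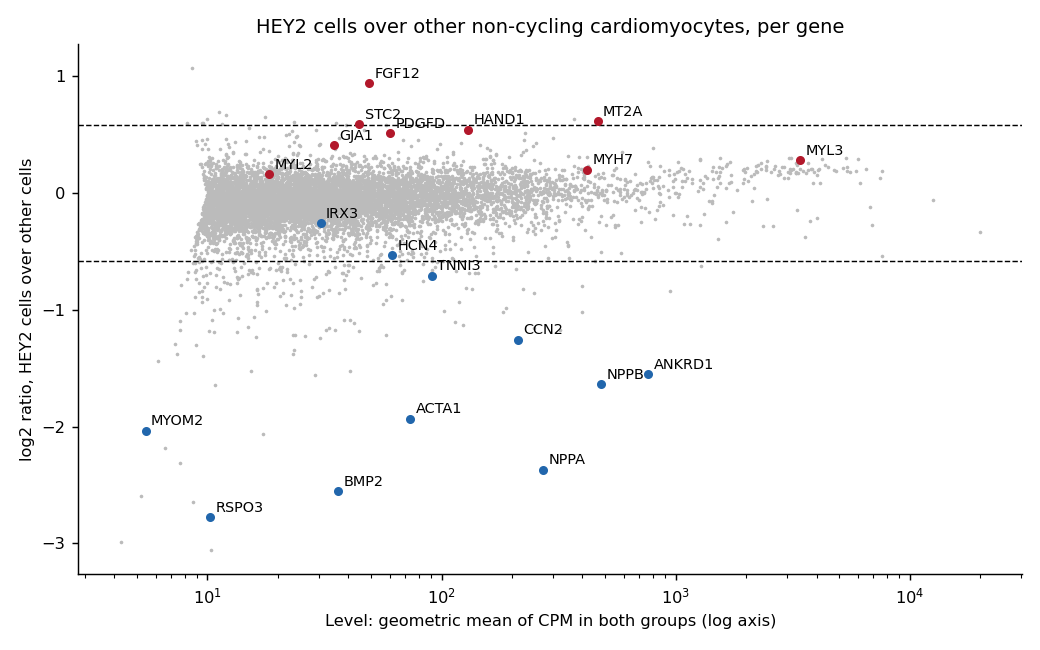
Each point is 1 measured gene outside the rule: its level (geometric mean of CPM in both groups, log axis) and the log2 ratio of HEY2 cells over other non-cycling cardiomyocytes, with dashed lines at a ratio of 1.5 in either direction. Labelled genes that lie far below the lower line are NPPA, BMP2, RSPO3, ACTA1, NPPB, ANKRD1 and CCN2, and FGF12 is the labelled gene with the highest ratio.

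The natriuretic peptides, which are made by atrial and trabecular muscle and by strained muscle, had some of the largest downward ratios. NPPA (gene at chr1:11845709-11848345 on GRCh38, minus strand) had 119.7 CPM in HEY2 cells and 618 CPM in the other cells, 5.16-fold lower (5.05 to 5.27). Its hashtag levels ran from 61.7 to 181 CPM (median 122) in HEY2 cells and from 122 to 1099 CPM (median 576) in the other cells. The ranges overlapped across hashtags, but within each of the 10 hashtags the HEY2 cells were lower. NPPB, which encodes the B-type peptide and is the next gene of the pair at chr1:11857464-11858931, had 273 CPM in HEY2 cells and 850.2 CPM in the other cells, 3.11-fold lower (3.07 to 3.16). NPPB was lower in 8 of 10 hashtags and above the other cells in 2. An NPPA UMI was found in 15.7% of thinned HEY2 cells, 37.7% of other cells and 74.6% of NR2F2 cells, with 4.55% in cells outside the cardiomyocytes.

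Some genes of load and of the muscle cytoskeleton were also lower. ANKRD1, which encodes a titin-bound ankyrin repeat protein induced by stretch, had 446 CPM in HEY2 cells and 1308 CPM in the other cells, 2.93-fold lower (2.90 to 2.97), with 107 to 739.7 CPM (median 398) in HEY2 cells and 234 to 3163 CPM (median 1164) in the other cells across hashtags. ACTA1, skeletal muscle alpha-actin, had 37.7 CPM in HEY2 cells and 144 CPM in the other cells, 3.81-fold lower (3.67 to 3.96). CCN2, a matricellular growth factor also called CTGF, had 137 CPM in HEY2 cells and 327 CPM in the other cells, 2.39-fold lower (2.34 to 2.44). All 3 were lower in 10 of 10 hashtags. TNNI3, the adult cardiac troponin I, was 1.63-fold lower (1.58 to 1.68), and MYOM2, an M-band protein, was 4.10-fold lower (3.55 to 4.75) at 2.69 CPM in HEY2 cells and 11.0 CPM in the other cells. LMOD1, a leiomodin best known from smooth muscle, was 2.27-fold lower (2.17 to 2.37). Of 19 measured sarcomere and cytoskeleton isoform genes, 5 were called lower (MYOM2, ACTA1, ANKRD1, LMOD2 and TNNI3) and 0 higher, with a median ratio of 0.72. The share called lower over all measured genes was 2.57%. With depth weighting, 3 of 18 measured genes of the list were called lower (ACTA1, ANKRD1 and LMOD2). Their list then had a median ratio of 0.86, and 1.43% of all measured genes were called lower. ACTC1, the cardiac alpha-actin, had 6324 CPM in HEY2 cells and 9182 CPM in the other cells and was not called. Among the remaining genes with large downward ratios, UNC5B-AS1 was 2.88-fold lower (2.74 to 3.03) and COL4A6, a basement membrane collagen, 2.26-fold lower (2.15 to 2.38). How the counting treated strand is not given in the sources used here, so it is not known whether reads of UNC5B-AS1 and of the gene opposite it were kept apart.

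The promoters of 3 of these genes are shown because they share a short motif. Of the 10 genes with the largest downward ratios at 50 CPM or more, 8 matched RefSeq promoters (GRCh38.p14, 250 bases before to 50 after the start), and 4 of the 8 held GGAATG on either strand: ACTA1, ANKRD1, CCN2 and LMOD1. GGAATG is the core motif bound by TEAD factors, and it is present in 14.0% of all 35116 promoters of this length. Among the 10 genes with the largest upward ratios at 50 CPM or more, 9 matched promoters. GGAATG was in 1 of these 9, FITM1, at 121 and 70 bases before the start. The counts out of 8 and 9 are per gene, over any promoter matched to it, while the shares of all are per promoter. A CArG box, the site of serum response factor, was found in 1 of the 8 (ACTA1, 97 bases before the start) and in 1.29% of all promoters. CACGTG was in 0 of the 8 and in 7.26% of all. The motifs were chosen with the gene names known, matches are letters only, and the CArG box and GGAATG matches do not overlap. Capitals mark GGAATG (or CATTCC, its reverse complement) and, in ACTA1, also the CArG box.
ANKRD1 promoter, chr10:90921038-90921337, minus strand: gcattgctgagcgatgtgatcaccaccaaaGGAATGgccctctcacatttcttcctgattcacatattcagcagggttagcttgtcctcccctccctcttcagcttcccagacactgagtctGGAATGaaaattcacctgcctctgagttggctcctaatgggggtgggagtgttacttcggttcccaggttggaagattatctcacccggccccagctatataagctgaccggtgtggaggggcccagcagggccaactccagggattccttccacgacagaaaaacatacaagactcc
CCN2 promoter, chr6:131951323-131951622, minus strand: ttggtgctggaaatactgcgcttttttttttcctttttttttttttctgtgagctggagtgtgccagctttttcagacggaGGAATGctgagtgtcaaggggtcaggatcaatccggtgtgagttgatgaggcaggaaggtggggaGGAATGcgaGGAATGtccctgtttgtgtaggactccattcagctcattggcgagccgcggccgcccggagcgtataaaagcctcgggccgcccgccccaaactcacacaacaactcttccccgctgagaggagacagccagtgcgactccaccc
ACTA1 promoter, chr1:229434045-229434344, minus strand: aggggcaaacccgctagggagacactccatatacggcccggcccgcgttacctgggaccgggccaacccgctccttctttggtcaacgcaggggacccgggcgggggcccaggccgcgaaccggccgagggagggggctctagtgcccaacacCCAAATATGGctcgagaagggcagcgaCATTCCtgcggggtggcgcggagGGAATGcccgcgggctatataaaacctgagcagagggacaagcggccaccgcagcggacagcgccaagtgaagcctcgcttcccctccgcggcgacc
In ANKRD1 the matches began 220 and 128 bases before the start, in CCN2 169, 104 and 95 bases before it, and in ACTA1 70 and 47.

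Ligands and T-box factors of the atrioventricular canal were lower as well. BMP2, a bone morphogenetic protein, had 14.9 CPM in HEY2 cells and 87.6 CPM in the other cells, 5.87-fold lower (5.53 to 6.24). Across hashtags BMP2 ran from 4.99 to 33.3 CPM (median 10.7) in HEY2 cells and from 31.5 to 107 CPM (median 66.4) in the other cells, and the HEY2 cells were lower in all 10. RSPO3, a secreted amplifier of Wnt signalling, had 3.93 CPM in HEY2 cells and 27.0 CPM in the other cells, 6.85-fold lower (6.11 to 7.72). TBX3, a repressor of chamber genes in the canal and conduction system, was 1.84-fold lower (1.75 to 1.94). Of 5 measured genes of the canal, 4 were called lower (RSPO3, BMP2, TBX3 and TBX2) and 0 higher, with a median ratio of 0.54, where 2.57% of all measured genes were called lower. TBX2 was not called with depth weighting, nor TBX3 when the rule was applied after thinning. MSX2, the remaining one, had 22.6 CPM in HEY2 cells and 32.7 CPM in the other cells.

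A minority of the genes of the BMP and Wnt pathways were lower, receptors and modulators among them. Over all measured genes, 2.57% were called lower and 0.192% higher. Of 14 BMP pathway genes, 3 were lower (BMP2, BAMBI and ID4) and 0 higher. BAMBI, a decoy receptor, had 129 CPM in HEY2 cells and 261 CPM in the other cells, and ID4, an inhibitor of basic helix-loop-helix factors, 72.4 CPM in HEY2 cells and 146 CPM in the other cells. ID1, another BMP target, was not called and had 124 CPM in HEY2 cells and 143 CPM in the other cells. Of 16 Wnt pathway genes, 5 were lower (RSPO3, FZD7, WNT2, SFRP1 and SFRP5) and 0 higher. The receptor FZD7 was 4.96-fold lower (4.37 to 5.64), the ligand WNT2 2.88-fold lower (2.66 to 3.12), and the secreted inhibitor SFRP1 had 167 CPM in HEY2 cells and 371 CPM in the other cells. Of 14 growth factor signalling genes, the receptors KDR (1.98-fold), PDGFRA (1.94-fold) and FGFR2 (1.84-fold) were lower, and 1 gene, FGF12, was higher. KDR is also 1 of the 6 endothelial markers, whose sum was 21.4 CPM in HEY2 cells and 38.8 CPM in the other cells. In the Notch pathway 1 of 9 genes was called, the ligand JAG1, 1.67-fold lower (1.60 to 1.75). HEY1, the closest relative of HEY2 in the list, had 28.5 CPM in HEY2 cells and 20.3 CPM in the other cells, a ratio of 1.40, and exceeded the other cells in 7 of 10 hashtags.

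Pacemaker and trabecular genes were lower where they passed the threshold. CACNA1D had 14.7 CPM in HEY2 cells and 37.5 CPM in the other cells, 2.54-fold lower (2.39 to 2.71), and was lower in 10 of 10 hashtags. Of 5 pacemaker genes 2 were lower (CACNA1D and TBX3), and HCN4, with 51.0 CPM in HEY2 cells and 73.8 CPM in the other cells, was not called. CPNE5, a trabecular marker in the mouse, was 1.81-fold lower (1.72 to 1.91). Of 7 trabecular genes 3 were lower (NPPA, NPPB and CPNE5). For both lists, the share called lower over all measured genes was 2.57%. The factors NKX2-5 (0.96), TBX5 (0.76), HAND2 (1.12) and TBX20 (1.16), which act in all or several chambers, had ratios under the threshold in either direction.

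Some matrix genes were lower, and the summed markers of several other cell types lay below their level in the other cells. Of 16 matrix genes 6 were lower (COL1A2, COL3A1, FN1, COL5A2, COL6A2 and SPARC), where 2.57% of all measured genes were called lower. COL3A1, a fibrillar collagen, had 17.0 CPM in HEY2 cells and 39.8 CPM in the other cells, and FN1, fibronectin, 21.4 CPM in HEY2 cells and 48.4 CPM in the other cells. The summed level of 8 stromal markers was 53.3 CPM in HEY2 cells and 100.3 CPM in the other cells, against 1566 CPM in cells outside the cardiomyocytes, and all 8 were below their level in the other cells. Across hashtags it ran from 30.2 to 95.8 CPM in HEY2 cells and from 55.5 to 131.6 CPM in the other cells. The sum of 6 endothelial markers was 21.4 CPM in HEY2 cells and 38.8 CPM in the other cells, and that of 6 epicardial markers 4.17 CPM in HEY2 cells and 8.54 CPM in the other cells. The sum of 6 smooth muscle markers was 232 CPM in HEY2 cells and 402 CPM in the other cells. In cells outside the cardiomyocytes these sums were 86.3 CPM (endothelial), 129 CPM (epicardial) and 242 CPM (smooth muscle). The smooth muscle sum there was below that of the other cells, so this list does not mark cells outside the cardiomyocytes here. COL1A1, COL1A2 and COL3A1 stand in both the matrix and the stromal list. None of these markers was at 0 in HEY2 cells. The part that RNA of such cells plays in the matrix genes was not tested.

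The few genes that were higher are of mixed kinds. FGF12, an intracellular relative of fibroblast growth factors that binds voltage-gated sodium channels, had the highest ratio among those at 50 CPM or more. FGF12 (chr3:192139395-192767764, minus strand) had 68.1 CPM in HEY2 cells and 35.5 CPM in the other cells, 1.92-fold higher (1.84 to 1.99). Its levels ran from 34.4 to 101 CPM (median 68.3) in HEY2 cells and from 15.5 to 62.2 CPM (median 36.2) in the other cells, and it was higher in 10 of 10 hashtags, with ratios of 1.33 to 4.09. With the other cells weighted by depth the ratio was 1.48, just under the threshold. CYP1A1, under 50 CPM, had a ratio of 2.10 (1.91 to 2.30), and 1.80 with depth weighting. The 7 genes MYCN, SEMA3C, DHRS3, MT1E, MT1X, MT2A and STC2, all called higher, missed the threshold with that weighting, at ratios of 1.35 to 1.46. After thinning, 14.2% of HEY2 cells held a FGF12 UMI, against 6.55% of other cells and 1.60% of cells outside the cardiomyocytes.

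The metallothioneins MT1E, MT1X and MT2A, small metal-binding proteins encoded in one cluster on chromosome 16, were higher by 1.53- to 1.55-fold. MT1X had 575 CPM in HEY2 cells and 371 CPM in the other cells. All 3 missed the threshold without Hashtag15 and without Hashtag14 and Hashtag15 together. Among hashtag-assigned cells, with the other cells weighted to the hashtag makeup of the HEY2 cells, the ratios were 1.13 for MT1E, 1.23 for MT1X and 1.18 for MT2A. Their sequences are closely similar, so reads may have been divided unevenly among them by the counting. Their levels varied more among hashtags than between the groups. MT1X ran from 118 to 1452 CPM (median 467) in HEY2 cells and from 82.8 to 1186 CPM (median 436) in the other cells, and it was higher in 7 of 10 hashtags, MT2A in 8 and MT1E in 6. The metal response motif TGCACNC or TGCGCNC is present in 29.6% of all promoters on either strand. Of the 10 genes with the largest upward ratios at 50 CPM or more, some of them not called, 9 matched a promoter. The motif was found in 5 of these 9 genes, counted if any promoter of the gene held it, while the 29.6% is per promoter. The MT2A promoter, shown with these matches in capitals, held 8 of them.
MT2A promoter, chr16:56608334-56608633, plus strand: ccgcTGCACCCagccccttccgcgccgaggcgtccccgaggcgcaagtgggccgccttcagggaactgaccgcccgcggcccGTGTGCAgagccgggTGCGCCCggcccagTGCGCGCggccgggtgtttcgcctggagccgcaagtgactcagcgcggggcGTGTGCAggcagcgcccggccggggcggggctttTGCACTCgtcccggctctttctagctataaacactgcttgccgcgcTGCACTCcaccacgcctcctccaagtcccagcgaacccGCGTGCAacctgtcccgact
MT2A thus carried the most matches among the 9, followed by MT1X with 4.

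STC2, the secreted glycoprotein stanniocalcin 2, had 54.6 CPM in HEY2 cells and 36.3 CPM in the other cells (1.51), and SEMA3C, a guidance factor of the outflow tract, 22.1 CPM in HEY2 cells and 14.1 CPM in the other cells (1.57). DHRS3, which reduces retinal and so limits retinoic acid, had 28.9 CPM in HEY2 cells and 19.0 CPM in the other cells (1.52). HAND1, a transcription factor of the left ventricle in the mouse, had 157 CPM in HEY2 cells and 108 CPM in the other cells, a ratio of 1.46 that misses the threshold, and was above the other cells in 10 of 10 hashtags. FITM1, a lipid droplet protein of striated muscle, had 272 CPM in HEY2 cells and 190.5 CPM in the other cells (1.43), and the iron hormone gene HAMP 56.4 CPM in HEY2 cells and 38.9 CPM in the other cells (1.45). The HAMP ratio depended on the setting, from 1.20 with the rule applied after thinning to 2.26 with hashtag weighting. The noncoding PRDM16-DT had 71.1 CPM in HEY2 cells and 47.5 CPM in the other cells, also just under the threshold. The 2 genes called with depth weighting were CYP1A1, a cytochrome P450, with 12.4 CPM in HEY2 cells and 5.93 CPM in the other cells, and KLHL14, with 15.1 CPM in HEY2 cells and 9.50 CPM in the other cells; they were picked out after their values were seen. No gene of 50 CPM or more was thus called higher with depth weighting.

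**Figure D4:**
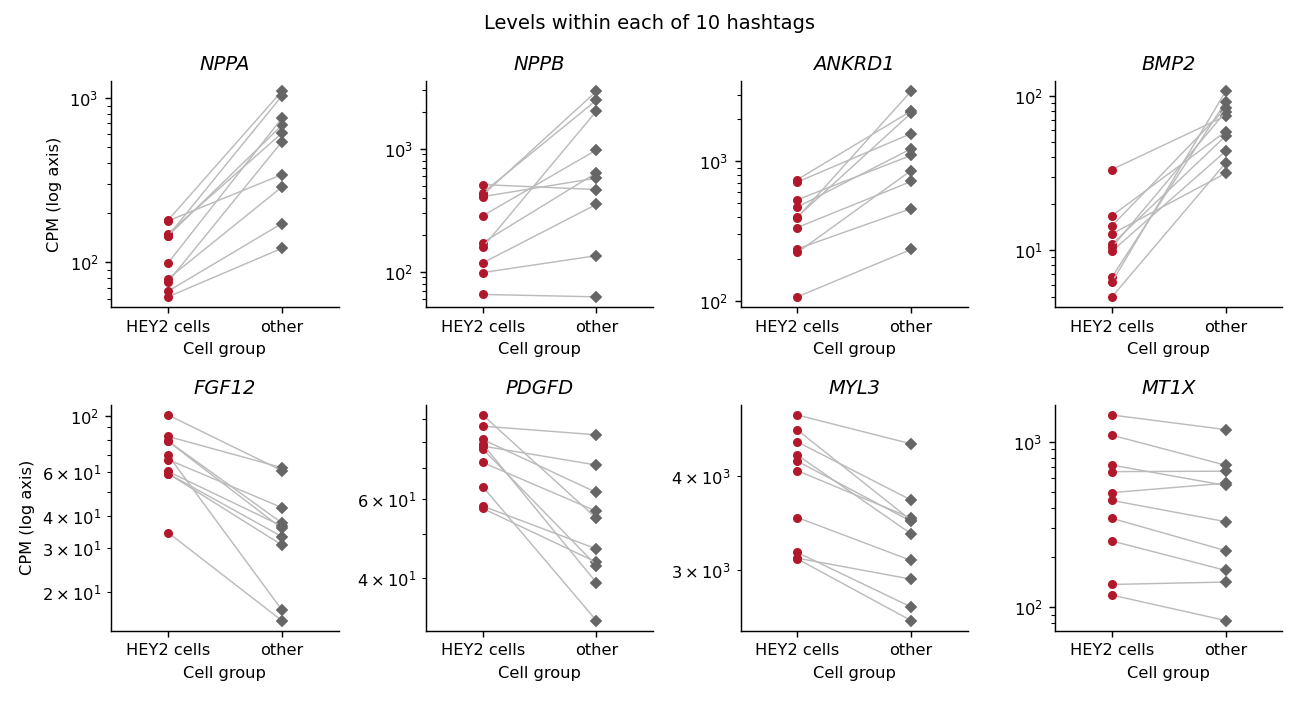
Level of 8 genes (CPM, log axis) in HEY2 cells (circles) and other non-cycling cardiomyocytes (diamonds) within each of 10 hashtags, with lines joining the same hashtag. NPPA, ANKRD1 and BMP2 were lower in HEY2 cells in all 10 hashtags, FGF12, PDGFD and MYL3 were above the other cells in all 10, and MT1X varied more between hashtags than between groups.

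The rule counts UMIs, and the share of HEY2 cells differed with depth. When the non-cycling cardiomyocytes were divided into 5 equal bins by UMIs per cell, from low to high, HEY2 cells were 3.84%, 11.8%, 29.2%, 43.9% and 46.2%. The lowest bin reached 6626 UMIs and the highest began at 18500. NPPA was lower in HEY2 cells in every bin, with ratios of 0.150, 0.101, 0.160, 0.208 and 0.365 from the lowest bin to the highest. FGF12 had ratios of 1.68, 2.40, 2.29, 1.41 and 1.46 in the same order, so it passed 1.5 in the 3 lower bins. PDGFD went from 2.35 in the lowest to 1.25 in the highest bin, and MYL3 stayed between 1.15 and 1.21. Thinning every cell to 5000 UMIs before the rule left 1284 HEY2 cells of 14575 (8.81%), with 2360 shallower cells left out.

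**Figure D5:**
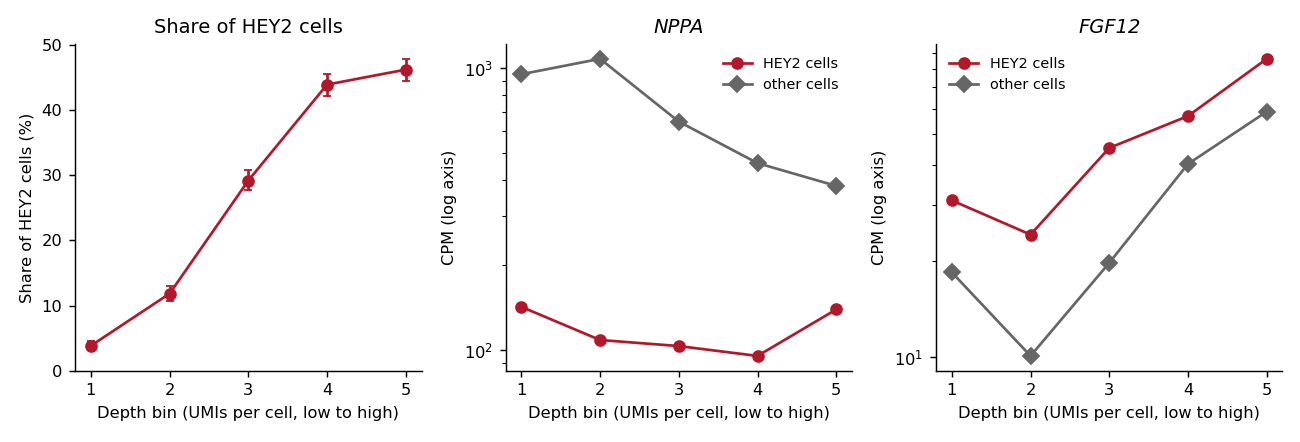
Share of HEY2 cells (%, exact 95% intervals) and levels of NPPA and FGF12 (CPM, log axes) in HEY2 cells (circles) and other cells (diamonds) across 5 equal bins of UMIs per cell, low to high. The share climbs with depth to 46.2%, NPPA stays lower in HEY2 cells in each bin and FGF12 stays above the other cells.

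The cells just inside and just outside the rule show how sharp its edges were. With all other criteria met, cells with 0, 1, 2, 3 and at least 4 HEY2 UMIs numbered 1736, 1354, 1071, 900 and 2601, and their median depth climbed from 9088 to 17299 UMIs. NPPA had 413, 199.7, 138, 141 and 108 CPM over these steps, and FGF12 30.1, 44.2, 54.2, 56.8 and 75.5 CPM. FGF12 was higher at each step, while NPPA fell mostly below the cut of 2 and was about level from 2 to 3 UMIs. ANKRD1 had 1182, 646, 442, 464 and 442 CPM, so it fell up to the cut and was about level beyond it. The part that depth plays in these steps was not tested. At the IRX4 edge, NPPA had 121 CPM in the 1393 members with 1 IRX4 UMI and 136 CPM in the 1087 cells that missed the rule for having 0. At the NR2F2 edge, it had 119.7 CPM in the members and 192 CPM in the 445 cells excluded by 1 NR2F2 UMI. At the IRX1 edge, FGF12 had 54.7 CPM in the 711 members with 1 IRX1 UMI and 34.5 CPM in the 283 cells with 2.

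Fewer genes were called against IRX1 cells than against NR2F2 cells, and 575 of the 1381 IRX1 cells also had the HEY2 and IRX4 counts of the rule. The definitions favour this order and no closeness is read from it. IRX1 cells had to lack NR2F2, as HEY2 cells did, with no limit on HEY2 or IRX4, while NR2F2 cells had to lack both. IRX1 cells were also closer to HEY2 cells in depth. Of 8334 measured genes, 72 (0.864%) were called higher in HEY2 cells and 234 (2.81%) lower, or 110 higher and 177 lower with TMM scaling. FGF12 had 68.1 CPM in HEY2 cells and 25.9 CPM in IRX1 cells (2.63-fold higher). Of 16 measured cardiac transcription factors, 2 were called higher in HEY2 cells and 0 lower (median ratio 0.93). HAND1 had 157 CPM in HEY2 cells and 80.2 CPM in IRX1 cells (1.95) and HAND2 225 CPM in HEY2 cells and 143 CPM in IRX1 cells (1.57). MYH7 had 449 CPM in HEY2 cells and 263 CPM in IRX1 cells (1.71), the 1 call among 9 ventricular genes. Other Iroquois genes were lower in HEY2 cells: IRX2, its neighbour on chromosome 5, had 54.1 CPM in HEY2 cells and 188 CPM in IRX1 cells (3.48-fold lower), and IRX3 27.8 CPM in HEY2 cells and 63.1 CPM in IRX1 cells (2.27-fold lower). CPNE5 was 2.85-fold and NPPA 2.31-fold lower in HEY2 cells, while NPPB, with 273 CPM in HEY2 cells and 317 CPM in IRX1 cells, and ANKRD1, with 446 CPM in HEY2 cells and 524 CPM in IRX1 cells, were not called. The NPPB and ANKRD1 levels of HEY2 cells, lower than those of all other cells together, were thus within 1.5-fold of those of IRX1 cells. Against IRX1 cells, 0 of 14 growth factor signalling genes (KDR, PDGFRA and FGFR2 included) and 0 of 17 stress genes were called lower. The lower calls were 2 of 14 BMP pathway genes (ID4 and BMP2) and 3 of 15 Wnt pathway genes (RSPO3, WNT2 and DKK3). In the matrix list 2 of 15 were lower (FN1 and COL3A1), and in the canal list 4 of 5.

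Within the HEY2 cells, the genes with the widest spread of counts were few. After thinning to 3000 UMIs (4542 cells, 30 shallower cells left out), the Fano factor, the variance of counts over their mean, had a median of 1.06 over 2034 genes with a mean of at least 0.2. MALAT1, a nuclear long noncoding RNA, had 61.0 and NPPB 27.3. NPPB was at 0 in 82.9% of these cells and reached 127 UMIs in 1 cell. MT2A (19.2), MT1X (15.0) and MT1E (12.8) were next among nuclear genes, with MYL7 (14.3), one of the 12 genes of the rule, and ACTC1 (9.41). MT2A ranged over hashtags from 89.2 CPM in Hashtag7 to 1369 CPM in Hashtag8. Mitochondrial transcripts MT-CO2 (16.5), MT-CO1 (15.6) and MT-CYB (10.4) completed the 10 most variable genes.

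HEY2 level itself was compared within the class by taking, within bins of depth, the 1518 members with the most HEY2 UMIs (HEY2-high members) and the 1518 with the fewest (HEY2-low members). HEY2-high members had a median of 7 HEY2 UMIs and HEY2-low members 2, at median depths of 16009 UMIs in HEY2-high and 16001.5 UMIs in HEY2-low members. Of 8187 measured genes, 9 (0.11%) were called higher in HEY2-high members and 49 (0.599%) lower. NPPA had 84.8 CPM in HEY2-high members and 143 CPM in HEY2-low members, and BMP2 10.4 CPM in HEY2-high members and 19.1 CPM in HEY2-low members. ID4 had 53.4 CPM in HEY2-high members and 89.2 CPM in HEY2-low members. STC2 had 70.1 CPM in HEY2-high members and 43.7 CPM in HEY2-low members, ANKRD37 105 CPM in HEY2-high members and 60.8 CPM in HEY2-low members and NMB, which encodes neuromedin B, 71.8 CPM in HEY2-high members and 41.8 CPM in HEY2-low members. The ventricular light chain genes were at similar levels in both: MYL2 had 21.2 CPM in HEY2-high members and 21.3 CPM in HEY2-low members, and MYL3 3754 CPM in HEY2-high members and 3708 CPM in HEY2-low members. Of the genes low in HEY2 cells, NPPA, BMP2 and ID4 were thus also called lower in HEY2-high members. Others were below but not called: NPPB (1.38-fold), ACTA1 (1.40-fold), UNC5B-AS1 (1.34-fold), CCN2 (1.33-fold), LMOD1 (1.26-fold) and COL4A6 (1.21-fold). ANKRD1, with 401 CPM in HEY2-high members and 489 CPM in HEY2-low members, was not called either. ATF3 was about level, with 39.0 CPM in HEY2-high members and 41.1 CPM in HEY2-low members. Of the genes higher in HEY2 cells, FGF12 had a ratio of 1.23, MT1X 1.03, MT2A 0.98 and MT1E 1.00. The split used the same HEY2 counts as the rule, so it describes the members and is no separate support.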

How the data were processed

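The gene expression library and the hashtag library were deposited as 1 matrix of counts (UMIs) over 36601 genes and 13 hashtags. The authors made it with Cell Ranger 4.0.0, per the file headers, and with build hg38, per the submitters' processing notes. For the annotation release, the strand setting and the cell-calling rule the sources used here give nothing. In all it has 311110726 gene UMIs and 9911316 hashtag UMIs.

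From these counts, 2415 of 24038 barcodes were filtered out, and classes were set by the UMI thresholds given in the report. The members and gene lists were chosen with earlier results of these data known. UMIs were summed per class, ratios have exact conditional binomial intervals, shares exact Clopper-Pearson intervals and levels exact Poisson intervals (scipy 1.17.1). PCR duplicates are collapsed by UMI. Cells with 20 or more hashtag UMIs, 70% or more of them from a single hashtag, were assigned to it: 45.8% of HEY2 cells and 49.1% of other cells. Hashtags are unassigned samples and are described by values and ranges only. Scrublet in scanpy 1.11.5 marked 2508 barcodes as doublets (11.6%, against an expected 17.3%), among them 11.1% of HEY2 cells and 11.6% of other cells. They were kept, and removed as an alternative.

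Genes named were the rule's genes, a fixed set (MYL2, MYL3, MYH6, MYH7, GJA1, PDGFD, NPPA, NPPB, HEY1, HCN4, HAND1, HAND2, TBX5, TBX20, NKX2-5, TNNI3, IRX2 and IRX3), up to 3 per list and side past 1.5, the 10 with the largest ratio per side at 50 CPM or more, and the 10 largest Fano factors. Other genes named complete a list's count or show an uncalled member, and were chosen after their values were seen. Positions are from GENCODE 29. In simulated counts of 8341 genes for the HEY2 against other cells comparison, 100% of 200 changed genes and 0% of unchanged genes were called, and intervals covered 94.8% of true ratios. The counts were drawn from a Poisson model with planted changes all well past 1.5-fold. They check the calculation only, and do not cover genes near the threshold or the spread between cells and hashtags. Alternatives were a stricter filter, doublet removal, only hashtag-assigned cells, other HEY2 minimums, thinning to 5000 UMIs, depth weighting in 20 bins, TMM scaling, other CPM minimums and leaving out hashtags.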

Additional observations from a re-analysis of the deposited data

How the results depend on the processing

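Of 62 named genes with a ratio against the other cells, 38 passed 1.5-fold. Of the 30 lower ones, 23 passed it under every one of 23 alternatives, and of the 8 higher ones, 0 did. No called gene changed sign. The share of HEY2 cells, 27.0%, became 29.1% with the stricter barcode filter, 25.7% among hashtag-assigned cells, 35.0% with a HEY2 minimum of 1 UMI, 15.4% with 4, 8.81% with the rule applied after thinning and 29.3% without Hashtag14 and Hashtag15. The 16 genes called higher became 25 among hashtag-assigned cells, 6 after thinning, 2 with depth weighting, 31 with TMM scaling, 5 at 50 CPM (FGF12, MT1E, MT1X, MT2A and STC2), 291 with no CPM minimum, 7 with hashtag weighting and 7 without Hashtag14 and Hashtag15. The 214 called lower became 111 after thinning, 118 with depth weighting, 141 with TMM scaling, 64 at 50 CPM and 3252 with no CPM minimum. Against NR2F2 cells, TMM scaling gave 1116 higher and 642 lower. Against IRX1 cells, genes higher numbered 110 with TMM scaling, 118 among hashtag-assigned cells and 45 with depth weighting. Leaving out each hashtag in turn gave shares of 26.4% to 28.4%, 8 (without Hashtag15) to 18 genes higher and 205 to 227 lower, and against NR2F2 cells 462 to 497 higher and 1136 to 1189 lower. Hashtag weighting, the joint removal of Hashtag14 and Hashtag15 and the alternatives for IRX1 cells were chosen after seeing the data. The minimums and the thinning change which genes or cells enter; otherwise the cause was not tested. No fit with a replicate block was made, since the labels give 1 pooled library and no replicate numbers. The groups were instead compared by value within each of 10 hashtags. Depth limits genes under 10 CPM, and the UMI rule leaves unseen those cells whose HEY2 transcripts were not captured.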

Other observations

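Several gene groups showed no call between HEY2 cells and the other non-cycling cardiomyocytes. Over all measured genes, only 2.57% were called lower and 0.192% higher, so lists of this size would often hold no call. None of 14 calcium handling genes passed the 1.5-fold threshold in either direction (median ratio 0.87, against 0.960 over all genes). ATP2A2, the sarcoplasmic reticulum calcium pump, had 259.7 CPM in HEY2 cells and 339.9 CPM in the other cells, RYR2, the calcium release channel, 231 CPM in HEY2 cells and 238 CPM in the other cells, and PLN, the pump's inhibitor, 989 CPM in HEY2 cells and 1188 CPM in the other cells. None of 10 junction and adhesion genes was called: DSP, desmoplakin, had 321 CPM in HEY2 cells and 313 CPM in the other cells and CDH2, N-cadherin, 364 CPM in HEY2 cells and 429.6 CPM in the other cells. The 17 glycolysis genes (median ratio 1.00), the 11 genes of oxidative and fatty acid metabolism (1.02), the 4 potassium channel genes (0.94) and the 9 S phase genes (0.92) likewise had 0 calls. The largest values among the calls of the stress list went in opposite directions, with MT1X and MT2A higher and ATF3, a stress-induced transcription factor, 2.32-fold lower (2.23 to 2.41). In the G1 list CCND1, cyclin D1, was the single call of 8, 1.59-fold lower (1.51 to 1.67), and it missed the threshold with depth weighting (1.43-fold), with TMM scaling, after thinning and with a HEY2 minimum of 4 UMIs.

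Epithelial markers were the only marker list of another cell type with a higher sum in HEY2 cells than in the other cells (322 CPM in HEY2 cells and 259 CPM in the other cells, over 6 genes). Most of that sum was KRT19, an intermediate filament gene, with 293 CPM in HEY2 cells and 218 CPM in the other cells, and the other 5 of the 6 markers were below their level in the other cells. EPCAM, a surface marker of epithelium, had 22.0 CPM in HEY2 cells and 25.5 CPM in the other cells.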
